A study of Mus musculus with 12 samples.

Results

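A set of 10 dendritic cell genes was followed through 12 libraries of bulk poly(A) RNA from pieces of mouse pancreatic tumor, 6 labelled Old tumor and 6 labelled Young tumor after the age group of the mouse. The genes were chosen by name, and all 10 of the 10 names were found, each as 1 row, among the 47643 genes of the deposited tables. Clec9a, Batf3, Snx22 and Naaa stood for type 1 conventional dendritic cells (cDC1), Cd209a and Clec10a for type 2 (cDC2), Siglech for plasmacytoid dendritic cells, Cacnb3 for mature dendritic cells, and Flt3 and Zbtb46 for the conventional lineage as a whole. Both ages carry the label KPC4662, the name of a tumor cell line derived from mouse pancreas, and differ in the age group of the host. The labels used here give no ages, strain, sex or site of implantation, and do not give the number of mice behind the pieces. The p-values therefore measure the spread between these pieces.

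Dendritic cells take up antigen in a tissue, carry it to lymph nodes and present it to T cells. In mice, cDC1 take up dead cells and present their antigens to CD8 T cells, a route much studied in tumors, while cDC2 mainly engage CD4 T cells and plasmacytoid cells secrete type I interferon. Growth of the lineage depends on the cytokine FLT3 ligand acting on the receptor FLT3.

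No dendritic cell gene passed the test of old against young tumors, and a single old library, Old tumor 1, had the highest value of 6 of them. Of the 10 genes, 8 had enough counts to be tested and 0 passed at an adjusted p of 0.05 with edgeR's quasi-likelihood test, against 2.26% of the 16013 genes tested (0.793% higher and 1.47% lower in old). With edgeR, 0 of the 8 had an unadjusted p under 0.05, against 21.1% of the 16013 genes tested. DESeq2 and limma-voom also called 0, with 0 and 2 genes under an unadjusted 0.05. For these tools the share of all genes under that level is not given here. The cDC1 genes and Flt3 lay below 0 on the log2 fold change (old over young), Zbtb46 at 0, and Clec10a and Cacnb3 above 0. The signs of Naaa, Batf3, Zbtb46 and Clec10a turned under at least 1 other scaling or set of libraries. Without Old tumor 1 the count was still 0, against 6.86% of 16124 genes. In that setting 2 of the 8, Clec9a and Flt3, had an unadjusted edgeR p under 0.05. This is near the share over all 16124 genes, 24.0%. In bulk tissue, fewer cells of a type and less RNA per cell cannot be told apart.

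Libraries held 17754645 to 24097599 counts in old and 20094808 to 23068369 in young tumors. The labels name the cells epithelial, and 7 epithelial genes such as Krt8 and Krt18 summed to 5179 to 8299 TPM (a transcript level scaled for gene length and library total) in old and 5290 to 9101 TPM in young tumors. The leukocyte gene Ptprc, which codes for CD45, was present at 12 to 26.4 TPM in old and 11.3 to 23.7 TPM in young tumors. Macrophage markers, 10 of 10 tested, summed to 2069 to 3993 TPM in old and 1590 to 3097 TPM in young tumors, with the highest sum in Old tumor 1. That library also had the lowest epithelial sum.

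The levels of the 10 genes differed widely. Over all 12 libraries Cacnb3 averaged 53.4 ± 6.41 TPM (SD, n = 12) and Naaa 47.6 ± 9.05 TPM, and Cacnb3 was the higher of the pair in 7 of 12 libraries, so their order was not fixed. Clec10a followed at 9.87 ± 9.65 and Batf3 at 7.39 ± 2.01 TPM, with Clec10a above Batf3 in 6 of 12. Snx22, Clec9a and Zbtb46 lay together at 2.43 ± 0.558, 2.33 ± 0.861 and 2.17 ± 0.684 TPM, with Snx22 above Clec9a and Clec9a above Zbtb46 in 6 of 12 libraries each. Flt3 averaged 1.26 ± 0.462 and Cd209a 0.806 ± 1.25 TPM, and Siglech was lowest at 0.0992 ± 0.114 TPM.

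The promoters of Clec9a, Cd209a and Cacnb3 are shown because the ratios between these genes within a library are compared between ages. Each window runs from 250 bases before to 50 after a RefSeq gene start (GRCm38.p6, the assembly of mm10), 5′ to 3′ on the gene's strand, with the dinucleotide CG in capitals. RefSeq windows matched 9 of the 10 genes.
Clec9a, chr6:129408612-129408911, plus strand: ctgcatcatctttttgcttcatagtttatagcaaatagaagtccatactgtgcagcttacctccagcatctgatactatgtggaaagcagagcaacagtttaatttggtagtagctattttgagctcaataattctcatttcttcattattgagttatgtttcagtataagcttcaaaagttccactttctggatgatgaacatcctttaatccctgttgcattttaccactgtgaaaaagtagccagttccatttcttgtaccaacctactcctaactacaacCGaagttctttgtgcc
Cd209a, chr8:3748935-3749234, minus strand: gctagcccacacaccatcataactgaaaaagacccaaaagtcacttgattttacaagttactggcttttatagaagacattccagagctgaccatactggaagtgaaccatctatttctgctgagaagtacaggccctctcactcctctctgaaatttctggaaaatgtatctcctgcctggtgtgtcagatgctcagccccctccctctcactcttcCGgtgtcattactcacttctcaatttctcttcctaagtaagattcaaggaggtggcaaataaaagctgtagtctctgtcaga
Cacnb3, chr15:98634517-98634816, plus strand: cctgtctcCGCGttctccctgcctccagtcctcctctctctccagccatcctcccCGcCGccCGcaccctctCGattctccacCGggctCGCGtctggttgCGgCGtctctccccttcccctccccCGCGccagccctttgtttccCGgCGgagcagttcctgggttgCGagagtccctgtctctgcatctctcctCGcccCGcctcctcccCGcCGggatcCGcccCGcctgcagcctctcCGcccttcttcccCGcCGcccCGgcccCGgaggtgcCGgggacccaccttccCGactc
The windows of Clec9a and Cd209a held 1 CG each, as did that of Zbtb46, and 14.1% of all 32851 promoter windows had as few. The Zbtb46 window (chr2:181424339-181424638, minus strand) lies inside the gene, whose 5′ end in the GENCODE annotation is at 181459426. This Cacnb3 window held 29 CG, and 88.3% of windows had as many or fewer, while the window at its other listed start, chr15:98632078-98632377, held 7. Batf3 had 34, Flt3 18, Naaa 12, Siglech 2, and Snx22 14 and 18 at its 2 starts. The median over all windows was 7. GGAAGT, the core read by ETS factors, searched on both strands, was found for Batf3, Cd209a, Flt3, Siglech and the other Cacnb3 start, which is 5 of 11 windows against 23.8% of all. TGANTCA, the AP-1 motif that BATF factors also bind, was found on either strand in the Zbtb46 window alone among the 11, against 7.81% of all. The Batf3 window (chr1:191098164-191098463, plus strand) and both Cacnb3 windows also lie inside their genes, whose annotated 5′ ends are at 191097847 and 98630840. The sequence at the annotated 5′ ends of Zbtb46, Batf3 and Cacnb3 was therefore not searched.

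Flt3, the cytokine receptor (chromosome 5, 147330741 to 147400489, minus strand, mm10), ran from 1.04 to 4.54 CPM (counts scaled to library size) with a median of 2.16 in old tumors, against 2.41 to 4.77 CPM with a median of 3 in young tumors. Its change, old over young, was −0.42 log2 units (SE 0.31, 95% interval −1.09 to 0.25; edgeR adjusted p = 0.459). Every young library lay above the old median, yet the ages overlapped: Old tumor 1, at 4.54 CPM, and Old tumor 6, at 3.20 CPM, lay within the young range. Without Old tumor 1 it was −0.70 (SE 0.28, edgeR adjusted p = 0.142). Zbtb46, a transcription factor of conventional dendritic cells that endothelial cells also express (chromosome 2, 181387762 to 181459426, minus strand), ran from 3.42 to 10.2 CPM with a median of 5.70 in old, against 4.54 to 7.66 CPM with a median of 5.95 in young tumors. The old libraries spanned the whole young range, with Old tumor 1 highest and Old tumor 4 lowest of all 12. The log2 fold change of −0.0012 (95% interval −0.53 to 0.52; edgeR adjusted p = 0.998) had no stable sign across scalings.

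Among the cDC1 genes, Clec9a showed the lowest fold change. It codes for DNGR-1, the lectin receptor with which cDC1 recognise dead cells (chromosome 6, 129408862 to 129424763, plus strand). Counts of Clec9a ran from 26 to 147.9 a library in old and from 62 to 114 in young tumors. Clec9a was at 1.44 to 6.16 CPM with a median of 2.41 in old tumors, against 2.87 to 5.72 CPM with a median of 3.86 in young tumors. Old tumors 2, 3, 4 and 6 lay below every young library, Old tumor 5 at 3.67 CPM lay inside the young range, and Old tumor 1 at 6.16 CPM above it. The mean was 2.96 ± 1.75 CPM in old and 4 ± 0.987 CPM in young tumors (SD, n = 6 each). Its fold change was −0.43 on the log2 scale (SE 0.32, 95% interval −1.13 to 0.27; edgeR adjusted p = 0.47). Without Old tumor 1 it was −0.80 (SE 0.25, 95% interval −1.34 to −0.26; edgeR adjusted p = 0.0722), and without Old tumor 1 and Old tumor 5 together −1.0 (SE 0.24, edgeR adjusted p = 0.0423), the setting in which Clec9a passed. Old tumor 1 and Old tumor 5 had the highest Clec9a of the old tumors, so each omission lowers the fold change by construction. Passing after both is therefore no support for a difference. Over its 25 alternatives the adjusted p of Clec9a ran from 0.0423 to 0.661 and the fold change stayed below 0.

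The transcript length assigned to Clec9a also varied between libraries of both ages. The ratio of count to TPM, which follows the mean transcript length that the quantification assigned, ran from 0.637 of the gene's average in Young tumor 3 to 1.38 in Old tumors 2 and 3, a span of 2.17-fold. A wider span was found for 0.843% of 12929 genes. TPM and CPM therefore ranked the libraries differently, with Young tumor 3 at 3.08 TPM but 2.87 CPM and Old tumor 2 at 1.22 TPM but 2.31 CPM. On log2(TPM + 1) the difference was −0.37 (SE 0.19, limma adjusted p = 0.234). The annotation places Clec1b on the same strand over part of the Clec9a locus, so reads there may be split between them.

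The other cDC1 genes had log2 fold changes nearer 0, and whether they differed from that of Clec9a was not tested. Batf3, the transcription factor that cDC1 need to develop (chromosome 1, 191097847 to 191108945, plus strand), ran from 2.42 to 5.29 CPM with a median of 2.97 in old, against 2.59 to 5.10 CPM with a median of 3.33 in young tumors (log2 change −0.12, SE 0.22, edgeR adjusted p = 0.798). Old tumor 1 and Young tumor 6 stood above the other 10 libraries, which all lay between 2.42 and 3.90 CPM. Snx22, a sorting nexin (chromosome 9, 66065176 to 66069719, minus strand), ran from 2.89 to 5.75 CPM with a median of 3.28 in old, against 3.36 to 4.96 CPM with a median of 3.82 in young tumors (log2 change −0.14, SE 0.20, edgeR adjusted p = 0.727). Snx22 overlaps Ppib on the opposite strand, and the strand setting of the counting is not given in the sources used here. Naaa, an acid amidase of lysosomes (chromosome 5, 92257659 to 92278170, minus strand), ran from 40.2 to 69.3 CPM with a median of 51.0 in old, against 43.6 to 69.5 CPM with a median of 62.4 in young tumors. The ages overlapped over nearly the whole range of Naaa (log2 fold change −0.12, SE 0.16, 95% interval −0.45 to 0.22; edgeR adjusted p = 0.705), and the sign of its difference turned on the TPM scale. Naaa averaged 47.6 TPM over all libraries, against 2.33 TPM for Clec9a, and whether its RNA came from cDC1 was not tested.

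**Figure D1:**
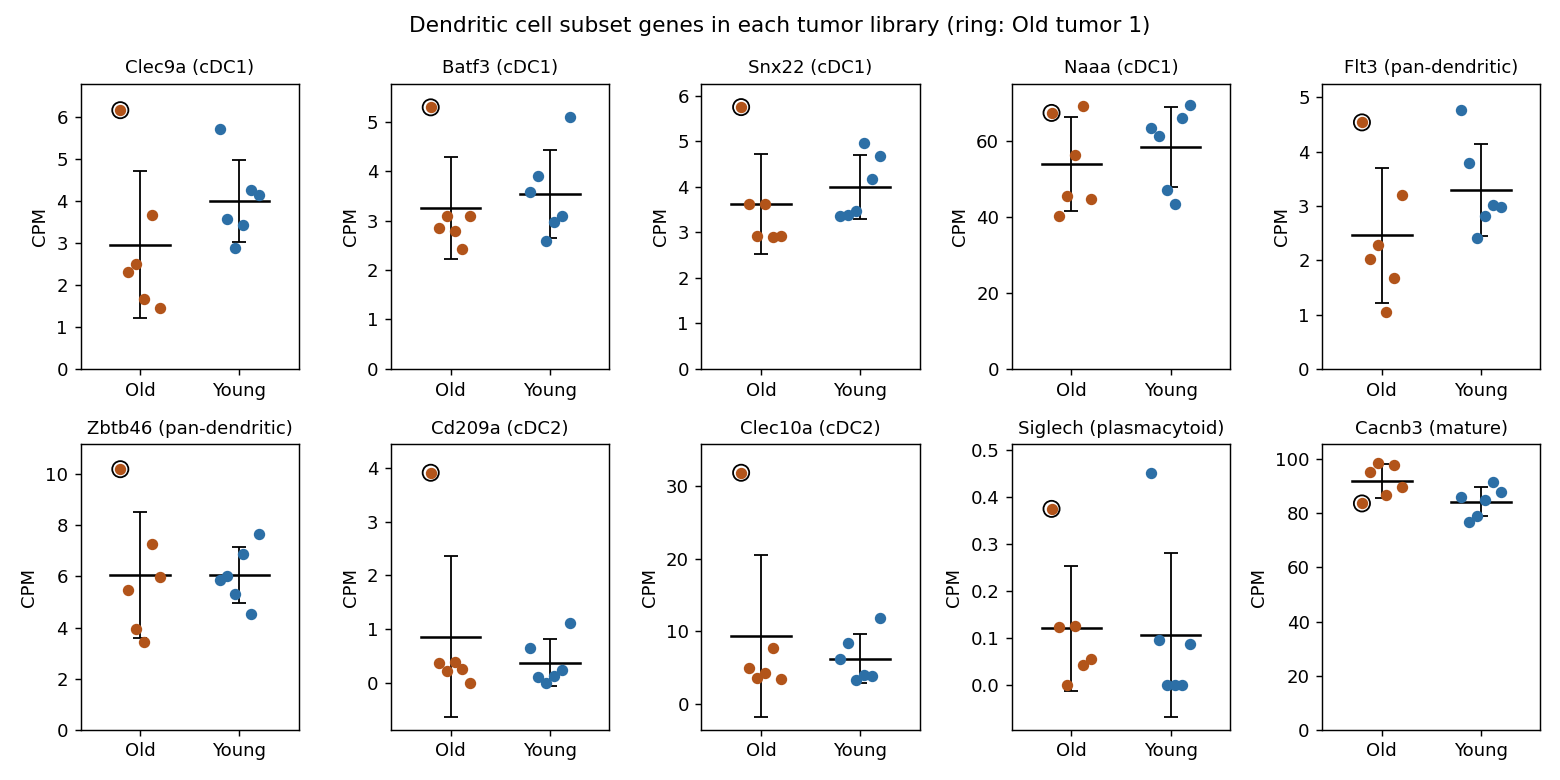
CPM of each of the 10 genes (vertical axes, linear) in the 6 old and the 6 young tumor libraries; bars give the mean and SD over 6 libraries and a ring marks Old tumor 1. Old tumor 1 has the highest value of 6 genes, among them Clec10a at 31.8 CPM, while Cacnb3 was at 83.7 CPM there, rank 10 of 12.

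The cDC2 genes were highest in Old tumor 1 by a wide margin. Clec10a, a lectin that binds galactose-type sugars and is made by cDC2 and by macrophages (chromosome 11, 70156197 to 70170834, plus strand), had 31.8 CPM in Old tumor 1 and 3.48 to 7.77 CPM in the other old tumors, against 3.33 to 11.8 CPM in young tumors. The 5 other old libraries averaged 4.82 ± 1.75 CPM (SD, n = 5), so Old tumor 1 was at 6.59 times their mean. The log2 fold change was 0.57 (SE 0.55, 95% interval −0.62 to 1.76; edgeR adjusted p = 0.585) with all libraries and −0.40 (SE 0.33, 95% interval −1.11 to 0.32; edgeR adjusted p = 0.506) without Old tumor 1. Cd209a, a relative of human DC-SIGN (chromosome 8, 3743397 to 3748984, minus strand), did not pass the filter. It had 94 counts in Old tumor 1 and 0 to 9 in the other old tumors, against 0 to 26 in young tumors. In CPM, Old tumor 1 was at 3.91 and the other old tumors averaged 0.244 ± 0.153 (SD, n = 5), against 0.373 ± 0.433 in young tumors (SD, n = 6), where Young tumor 6 was highest at 1.12. Old tumor 6 and Young tumor 3 had 0 Cd209a counts, which allows up to 0.165 and 0.139 CPM (3 counts a library, counting error only). Young tumor 6 was also second to Old tumor 1 for Clec10a, at 11.8 CPM.

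Siglech, a sialic acid-binding receptor of plasmacytoid cells and microglia (chromosome 7, 55768178 to 55778925, plus strand), was close to the detection limit. It had 17 counts over the 6 old tumors, 9 of them in Old tumor 1, against 13 counts over the 6 young tumors, 9 of them in Young tumor 1. Old tumor 3 and Young tumors 3, 4 and 5 had 0. No difference in Siglech between ages was detectable at this depth. Cacnb3, a beta subunit of voltage-gated calcium channels whose transcript rises in mature dendritic cells (chromosome 15, 98630840 to 98644529, plus strand), ran from 83.7 to 98.5 CPM with a median of 92.5 in old, against 77.0 to 91.5 CPM with a median of 85.6 in young tumors. It had the smallest SD relative to its mean of the 10 genes in both ages, and a log2 fold change of 0.12 (SE 0.07, 95% interval −0.02 to 0.27; edgeR adjusted p = 0.292). Old tumors 2, 3 and 5 lay above every young library. On log2(TPM + 1) the difference was 0.26, on a scale whose all-gene median was 0.127 (0.026 in the count test; limma adjusted p = 0.0567).

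The maturation markers differed among themselves in level and in how Old tumor 1 ranked. Old tumor 1 had the highest CPM of 8 of the 15 tested, against 14.0% of all 16013 tested genes. Ccr7, the receptor that guides mature dendritic cells to lymph nodes, was at 1.91 to 7.10 TPM in old and 2.63 to 5.34 TPM in young tumors, against 51.5 to 63.0 TPM and 44.2 to 52.1 TPM for Cacnb3. Ccr7 was at 8.33 CPM in Old tumor 1 and at most 5.24 CPM in the other old tumors, and Ccl22, a chemokine of mature dendritic cells, at 19.7 and at most 14.7 CPM. Tmem123 and Socs2 had levels near that of Cacnb3, with Tmem123 at 40.7 to 60.2 TPM in old and 39.6 to 49.4 TPM in young tumors and Socs2 at 37.6 to 55.6 TPM in old and 44.9 to 70.4 TPM in young tumors. Fscn1, an actin-bundling protein of mature dendritic cells, was higher, at 71.9 to 210 TPM in old and 86.8 to 133 TPM in young tumors, and was at 152 CPM in Old tumor 1 and up to 262 CPM in the other old tumors. Relb, an NF-kappaB subunit, was at 35.5 CPM in Old tumor 1 and up to 35.6 CPM in the other old tumors. Of these genes only Socs2 came from the naming rule, and the others were chosen after their values were seen. Whether Cacnb3 RNA came from dendritic cells in these tumors was not tested.

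**Figure D2:**
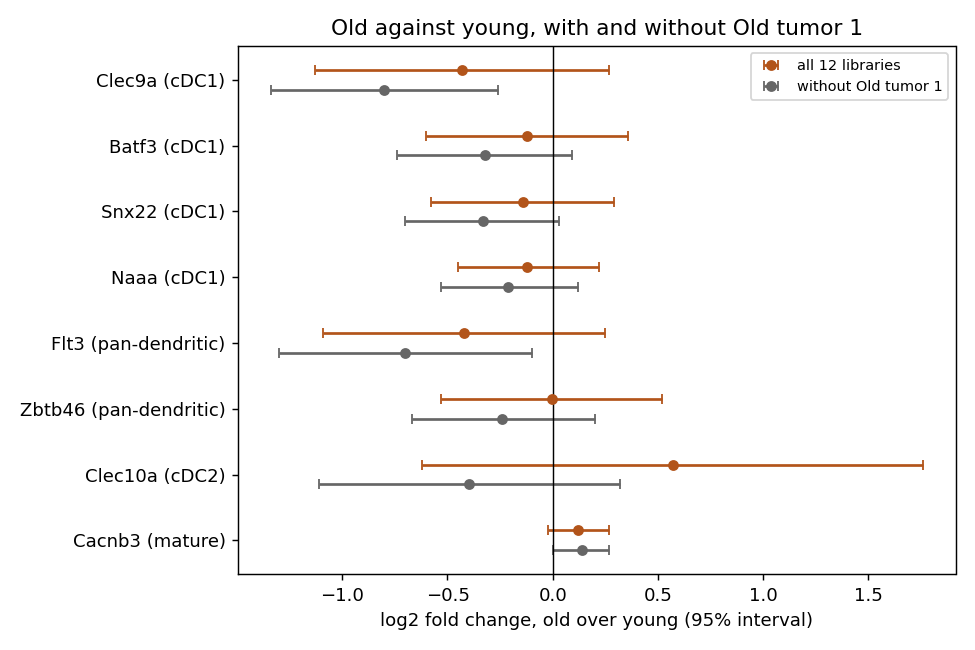
Log2 fold change, old over young (horizontal axis), with its 95% interval for the 8 tested genes, from all 12 libraries and without Old tumor 1. Clec10a is at 0.57 with all libraries and −0.40 without that library, and Clec9a at −0.43 and −0.80.

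Old tumor 1 had the highest CPM of 6 of the 10 genes: Clec9a, Batf3, Snx22, Zbtb46, Cd209a and Clec10a. It was highest for 14.0% of the 16013 tested genes. Flt3 and Siglech had rank 2 there and Naaa rank 3. Its ratio to the mean of the other 5 old tumors was 16.1-fold for Cd209a, 6.59-fold for Clec10a, 2.66-fold for Clec9a, 2.22-fold for Flt3, 1.97-fold for Zbtb46, 1.86-fold for Batf3, 1.79-fold for Snx22 and 1.32-fold for Naaa, while Cacnb3 was at 0.894 of that mean. Some markers of other cells were also highest there, and others were not. The macrophage markers summed to 3993 TPM in Old tumor 1 and at most 2798 TPM in the other old tumors, and 9 of the 10 were highest there. The 8 B cell markers, 1 of them tested, summed to 19.1 TPM in Old tumor 1 and at most 6.27 TPM in the other old tumors, against 1.64 to 4.70 TPM in young tumors, and no B cell marker was at 0 in that library. The 6 lymph node stroma markers, 3 of them tested, summed to 44.2 TPM in Old tumor 1 and 2.08 to 42.5 TPM in the other old tumors, against 6.59 to 16.5 TPM in young tumors. Of the 3 tested, 1 was highest in Old tumor 1, and Ccl21a was at 13.9 CPM there and up to 16.9 CPM in the other old tumors. Of the 6 monocyte markers, all tested, 4 were highest there, among them Ccr2 at 44.7 CPM in Old tumor 1 and at most 20.3 CPM in the other old tumors, against at most 23.4 CPM in young tumors. Their sum, most of it Plac8 (1072 to 1389 TPM in old and 1254 to 1813 TPM in young tumors), was lowest there, at 1157 TPM. Of 4 leukocyte markers, 2 were highest in Old tumor 1. Ptprc was at 75.0 CPM there and at most 50.6 CPM in the other old tumors. Cd53 was at 152 CPM there, against up to 185 CPM in the other old and 214 CPM in young tumors. The part of these other cells in the dendritic cell values was not tested. With Ptprc as a covariate over all 12 libraries the old to young change was −0.51 log2 units for Clec9a (SE 0.27, edgeR adjusted p = 0.294), −0.44 for Flt3 and 0.26 for Clec10a.

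**Figure D3:**
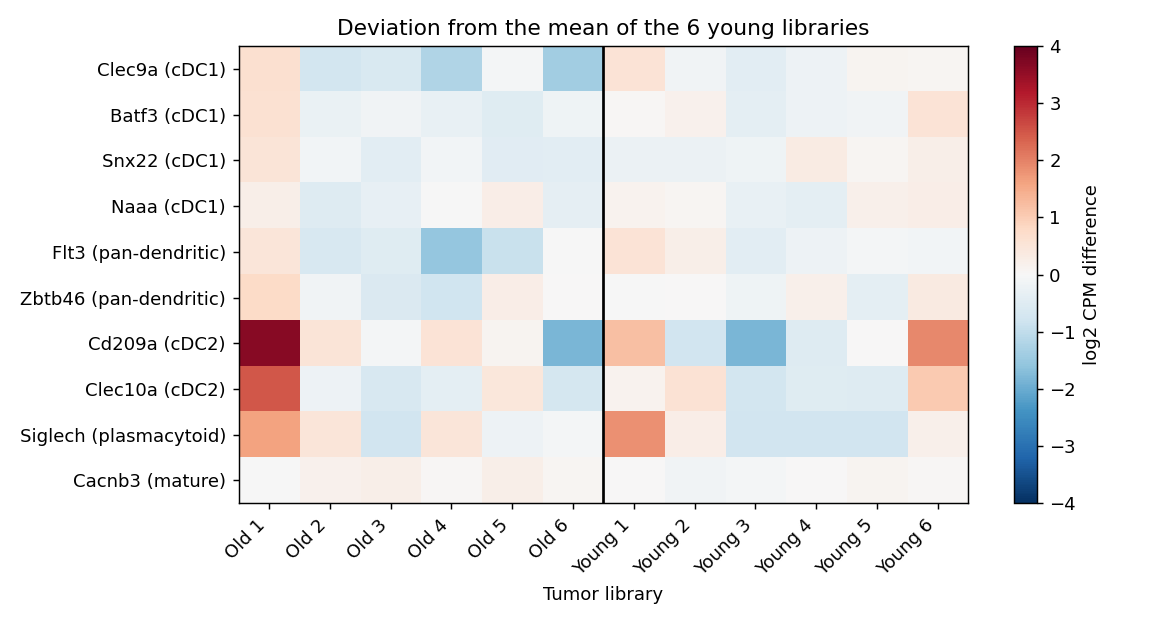
Log2 CPM of each gene minus its mean over the 6 young libraries (color, log2 units), for the old libraries on the left and the young ones on the right. Old tumor 1 is raised for Cd209a by 3.64 and for Clec10a by 2.47 log2 units, and Clec9a is lowest in Old tumor 6 at −1.39.

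Ratios within a library asked whether genes standing for different subsets differed between ages by unequal amounts. Each ratio compares single genes. Whether the ratios follow the cell subsets was not tested, nor was whether Cacnb3 RNA came from mature dendritic cells. The pairs among Clec9a, Cd209a, Siglech and Cacnb3 made 6 in all. With all libraries, 0 passed a two-sided exact permutation test of the age labels, adjusted over the 6 pairs (smallest possible p 0.00216). The log2 ratio of Clec9a to Cacnb3 averaged −5.09 ± 0.77 in old and −4.40 ± 0.29 in young tumors (SD, n = 6 each), a difference of −0.69 (exact permutation p = 0.0714, adjusted p = 0.312). Old tumor 1, at −3.74, was above every young library, and the other old tumors ran from −5.88 to −4.71, against −4.74 to −3.89 in young tumors. Without Old tumor 1 the difference was −0.96 (exact permutation p = 0.00433, adjusted p = 0.026), and without Old tumor 1 and Old tumor 5 it was −1.12 (exact permutation adjusted p = 0.0286). Old tumor 5, at −4.71, had the highest ratio of the remaining old tumors, so each omission enlarges the difference by construction. Those p-values are therefore no support for a difference. Cacnb3 averaged 92 ± 6.19 CPM in old and 84.4 ± 5.48 CPM in young tumors (SD, n = 6 each). Clec9a, at 2.96 ± 1.75 CPM in old and 4 ± 0.987 CPM in young tumors, varied more relative to its mean. Their ratio therefore mainly followed Clec9a. The log2 ratio of Clec9a to Cd209a differed by −1.05 (exact permutation p = 0.156, adjusted p = 0.312), with Old tumor 1 lowest at 0.64. The ratios with Siglech rest on at most 9 Siglech counts a library.

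**Figure D4:**
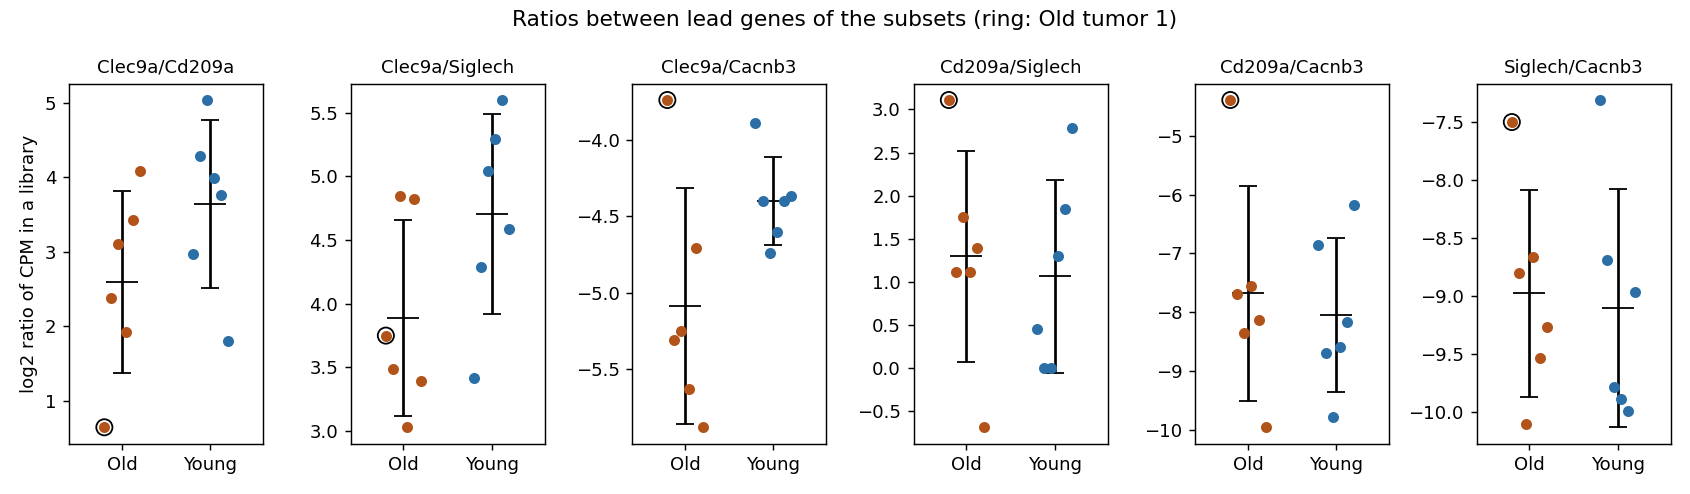
Log2 ratio of the CPM of paired genes within each library (vertical axes), for the 6 pairs among 4 subset genes, in old and young tumors; bars give mean and SD over 6 libraries and a ring marks Old tumor 1. For Clec9a/Cacnb3 the 5 old libraries other than Old tumor 1 lie at or below −4.71.

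Other genes assigned to the same cells, from lists of cDC1, cDC2, plasmacytoid, mature and further dendritic cell genes, gave 0 calls with all libraries. Of 10 further cDC1 genes 9 were tested, 0 higher and 0 lower, with a median log2 fold change of −0.27 against 0.026 for all tested genes. Itgae, the CD103 integrin chain shared by cDC1 and tissue T cells, averaged 5.08 ± 2.31 CPM in old and 10.2 ± 3.03 CPM in young tumors (SD, n = 6 each), a log2 change of −1.01 that did not pass (SE 0.30; adjusted p = 0.0856 by edgeR). Xcr1, the chemokine receptor of cDC1, was at −0.83 (SE 0.48, edgeR adjusted p = 0.339) and Id2, a regulator of lymphoid and dendritic cells, at −0.21 (SE 0.09, edgeR adjusted p = 0.206). Of 10 cDC2 genes 8 were tested with a median of 0.12, and Mgl2, the close paralog of Clec10a, was at −0.37 (SE 0.23), Klf4 at 0.36 (SE 0.22) and Notch2 at 0.12 (SE 0.07). Reads of Mgl2 and Clec10a can be shared, so both are uncertain. Levels within the lists differed widely. Xcr1 averaged 1.47 CPM in old and 2.62 CPM in young tumors, against 144 and 167 CPM for Id2. Klf4 averaged 163 and 127 CPM, and Notch2 163 and 149 CPM. Which cells the RNA of the listed genes came from was not tested, so the list medians here and below describe genes, not cell subsets.

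Of 12 plasmacytoid genes 9 were tested with a median of 0.01. Bst2, a surface marker of plasmacytoid cells that interferon also induces in many cells, was at −0.69 (SE 0.25, edgeR adjusted p = 0.135), and the nucleic acid sensors Tlr9 and Tlr7 at 0.78 (SE 0.35) and 0.64 (SE 0.36). Of 16 maturation genes 15 were tested with a median of −0.31, among them Tnfrsf4 at −0.95 (SE 0.37), Socs2 at −0.35 (SE 0.13) and Traf1 at −0.31 (SE 0.17), none with an adjusted p under 0.05 by edgeR. Of 6 further dendritic cell genes 5 were tested, and Itgax, which codes for CD11c, was at −0.26 (SE 0.12), with Ciita at −0.44 (SE 0.26) and Csf2rb at −0.16 (SE 0.23).

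Among 8 ligands that feed or recruit dendritic cells 7 were tested and 0 passed. Xcl1, the lymphocyte chemokine that binds Xcr1, averaged 0.543 ± 0.418 CPM in old and 2.46 ± 1.16 CPM in young tumors (SD, n = 6 each) and missed the threshold (edgeR adjusted p = 0.0509). Flt3l, the ligand of Flt3, was at −0.12 (SE 0.23) and Cxcl16 at −0.17 (SE 0.12). Without Old tumor 1, where 4.17% of all genes were called lower and 2.69% higher, 1 of 9 cDC1 genes (Itgae, −1.26, edgeR adjusted p = 0.0229), 1 of 8 cDC2 genes (Mgl2, −0.68, edgeR adjusted p = 0.0131), 1 of 9 plasmacytoid genes (Bst2, −0.92, edgeR adjusted p = 0.0266), 2 of 15 maturation genes (Tnfrsf4, −1.29, edgeR adjusted p = 0.0413, and Cd80, −0.82, adjusted p = 0.0393, the second named after its value was seen) and 1 of 7 ligands (Xcl1, −2.63, edgeR adjusted p = 0.0161) fell, and 0 rose. Of 8 T cell markers, which summed to 11 to 52.1 TPM in old and 21.4 to 61.1 TPM in young tumors, 3 fell in that setting. Old tumor 1 had the highest CPM of the old tumors for each gene that fell, so its omission lowers their fold changes by construction. Those adjusted p-values are therefore no support for a difference. The part of T cells in Itgae and Xcl1 was not tested.

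The genes whose log2 CPM was most like each subset gene, after the mean of each age was removed, were ranked over 12 libraries among about 12945 genes of at least 1 CPM, as a description without a test. For Clec9a they were Tmem14c (Pearson r 0.962), Phf11b (0.954), Bcl2a1d (0.95) and Fam26f (0.949), with r of 0.893 to 0.939 when Old tumor 1 was left out. For Cd209a they were Adamts5 (0.932), Rab29 (0.906), Snrk (0.905) and Il27ra (0.904), and for Siglech Haus1 (0.906), Shfm1 (0.896), Dbndd2 (0.885) and Cox17 (0.869). For Cacnb3 they were Rapgef5 (0.938), Nars2 (0.849), Acer2 (0.84) and Endog (0.819). Cd209a and Siglech rest on few counts, and the libraries share depth and composition, which can raise r.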

How the data were processed

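RNA with an integrity number above 8 was poly(A)-selected and made into directional libraries, per the labels' protocols. The submitters' processing notes name cutadapt 2.3, STAR 2.7.0d, RSEM 1.3.1 and the build mm10. No annotation or strand setting is given in the sources used here. For 47643 genes, 1 column a library, the deposited tables hold expected counts, unnormalized, and TPM, scaled by the authors for transcript length and library total. Expected counts were rounded for testing (86% to 88.2% were whole, tolerance 0), and totals were 17754645 to 24097599 a library.

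The 6 Old tumor and 6 Young tumor libraries were compared with edgeR 4.0.16 (R 4.3.3): TMM scaling, filterByExpr, a quasi-likelihood F test without a block and Benjamini-Hochberg adjustment over 16013 genes, two-sided at 0.05. Fold changes are old over young, and SE is the log2 fold change divided by the square root of F. CPM uses TMM-scaled library sizes, log2 CPM a prior count of 2. Within-library ratios used exact permutation. Alternatives were scaling by total count, upper quartile or RLE, DESeq2 1.42.0 without a filter, limma 3.58.1 (voom with quality weights, and log2 TPM with pseudocounts of 1 and 0.1), 2 other filters, a prior count of 0.5 for ratios, Ptprc as a covariate, removal of a gene length trend (spline, 4 degrees of freedom), a replicate block and left-out libraries. Libraries of an age differed by far more than sampling noise (chi-square per degree of freedom at least 15.5). None therefore looked like a repeat of another, and each counted once. This does not show that the pieces came from different mice.

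The members and lists were chosen with earlier results of these data known. Named are the 10 genes, the 3 genes of smallest p in each dendritic cell list and the 4 genes most like each of Clec9a, Cd209a, Siglech and Cacnb3. Coordinates came from GENCODE M21. In simulated data for this comparison over 16013 genes, edgeR recovered 30% of 1.5-fold, 78% of 2-fold and 98% of 4-fold changes. The changed genes were drawn at random from all tested genes, with noise independent between genes and no shared outlying library. Recovery for the dendritic cell genes themselves was not computed.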

Additional observations from a re-analysis of the deposited data

Results flagged for a closer look

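Old tumor 1 stood far above the next old library for 5 of the 10 dendritic cell genes: Clec10a at 31.8 CPM (next 7.77), Cd209a at 3.91 (next 0.375), Snx22 at 5.75 (next 3.63), Batf3 at 5.29 (next 3.10) and Siglech at 0.375 (next 0.125). Among the old libraries it also stood out for Mgl2 at 43.3 CPM (next 22.9), Csf2rb at 65.9 (next 36.5) and Itgax at 47.7 (next 41.5). The highest young values were 34.6 CPM for Mgl2, 61.1 for Csf2rb and 60.6 for Itgax. For Itgax, Old tumor 1 was below the young mean of 49.9 CPM. Young tumor 1 stood out for Siglech at 0.452 CPM (next 0.0963), a value of 9 counts. The Siglech value of Old tumor 1 also rests on 9 counts. In each case the gap to the nearest library passed Dixon's 95% critical value. Of 56 sets of 6 libraries, from 28 genes in 2 ages, 9 met this, 8 of them in Old tumor 1. For normally distributed values chance gives about 1 in 20. CPM on a linear scale, above all of genes with few counts, need not follow that rate. The genes are not independent of each other.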

How the results depend on the processing

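With the replicate number as a block, Clec9a was at −0.56 (edgeR adjusted p = 0.259), and 1 gene in all and 0 dendritic cell genes passed, and no pair of genes did. Same-numbered libraries did not deviate together (correlations of −0.23 to 0.139), and 1 of 6 old libraries correlated best with its own number. The count of genes past the threshold, 362 with all libraries, was 1381 with DESeq2, 977 with limma-voom, 151 without a filter, 111 with the length trend removed, 742 without Old tumor 1 and Old tumor 5, and 2 (without Old tumor 3) to 1106 (without Old tumor 1) with single libraries left out. Each single library other than Young tumor 3 moved it by over 1.5-fold. The count among the 10 dendritic cell genes was 1 (Clec9a) without Old tumor 1 and Old tumor 5 and 0 in the other alternatives. Those libraries had the highest Clec9a of the old tumors. Calls higher in old made up 35.1% of the total, 51.5% with total-count scaling and 85.8% on log2(TPM + 1) and 87.6% on log2(TPM + 0.1).

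The log2 fold change of Clec9a, Flt3, Snx22 and Cacnb3 kept its sign in all 25 alternatives. Clec10a turned to −0.048 with limma-voom and −0.61 without Old tumor 1 and Old tumor 5, and ran from −0.40 to 0.86 with single libraries left out. Zbtb46 turned to 0.026 with total-count scaling, 0.031 on log2(TPM + 1) and 0.021 on log2(TPM + 0.1), and ran from −0.24 to 0.12 with single libraries left out. Naaa turned to 0.0086 on log2(TPM + 1) and 0.0088 on log2(TPM + 0.1), and Batf3 ran from −0.32 to 0.019 with single libraries left out. The difference in the Clec9a to Cacnb3 ratio passed at −0.96 without Old tumor 1 and at −1.12 without Old tumor 1 and Old tumor 5. Those were the old libraries of highest ratio, so each omission enlarges the difference by construction. This difference ran from −0.96 to −0.53 with single libraries left out. Cd209a to Siglech, 0.23 with all libraries, was −0.053 with a prior count of 0.5, −0.24 without both old libraries, and −0.13 to 0.63 with single libraries left out. Cd209a to Cacnb3, 0.36 with all, was −0.35 without both and −0.30 to 0.82 with single libraries left out. Siglech to Cacnb3, 0.13 with all, was −0.25 on log2(TPM + 1), −0.11 on log2(TPM + 0.1), −0.10 without both and −0.17 to 0.49 with single libraries left out. The cause was not tested. Cd209a and Siglech were fitted only without a filter (1.19, edgeR adjusted p = 0.523, and 0.23, edgeR adjusted p = 0.933) and by DESeq2, and their values are limited by depth.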
